A study of Mus musculus with 6 samples.

Results

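The insulin-like growth factor (IGF) axis was described here by 10 genes of the 47729 in the deposited table, picked by symbol: the binding proteins Igfbp2, Igfbp3, Igfbp4, Igfbp5, Igfbp6 and Igfbp7, the receptors Igf1r and Insr, and the receptor substrates Irs1 and Irs2. The rule itself is a list of symbols with no threshold on a measured value, and the list was drawn up with earlier results of these data known. They were read in RNA from 4T1 and 4TO7, a pair of established mouse mammary carcinoma lines from spontaneous BALB/c tumours, each grown untreated in serum-supplemented medium, with 3 libraries per line. As background, both lines trace to the same parental tumour, and 4T1 forms overt metastases in mice while 4TO7 seldom does. The labels give no passage, clone, batch or date and no sign that replicates came from separate cultures. The p-values therefore measure the spread between these libraries, which may be technical.

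As background, IGF-I and IGF-II act through the IGF-I receptor, a tyrosine kinase closely related to the insulin receptor, and both receptors pass the signal to IRS adaptors and on to PI3 kinase and AKT. Binding proteins in the extracellular fluid hold the ligands away from the receptor or deliver them to it, and proteases release the ligand by cutting the binding protein. In the mammary gland the axis acts in duct growth and in the loss of milk-producing cells after weaning, with Igfbp5 rising at that time. Serum is itself a source of IGFs and binding proteins for cultured cells.

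Libraries held 33605566 to 39072639 reads assigned to genes. 4TO7 replicate 2 stood apart from the other 4TO7 libraries on the second principal component (score 52.2 against -20.0 and -27.5), which held 5.27% of the variance. The 4 calls made below on the 10 genes all held without it. The epithelial keratins Krt8 and Krt18 were abundant in every library, and the summed level of the 6 mammary epithelial markers was 140319 to 157454 normalised counts in 4T1 and 25824 to 42449 in 4TO7. All 5 of the tested markers of that list were called higher in 4T1, with ratios of means of 717 for Epcam (15.7 to 33.8 normalised counts in 4TO7) and 114 for Cdh1 (139 to 221), and with 4140 reads of Krt14 in 4T1 against 1 in 4TO7. Krt14 passed the low-value filter through its 4T1 libraries alone, which set its direction. Over all genes tested, 25.1% were called higher in 4T1. Of 6 leukocyte markers 1 passed the low-value filter, Cd68, which was 2.75-fold higher in 4T1 (323 ± 102 against 118 ± 34.3 normalised counts, adjusted p = 0.00534 from limma), and the leukocyte marker Ptprc had 12 reads over 4T1 and 1 over 4TO7. The endothelial marker Pecam1 had 22 and 23 reads. Of 6 fibroblast markers 1 passed, Pdgfra, which carried nearly all of a summed level of 587 to 1359 in 4T1 and 1710 to 7484 in 4TO7, while Lum and Thy1 were at 0 in all 6 libraries. The part of these differences in the results below was not tested.

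The lines held RNA of different binding protein genes beside that of a shared one, and protein was not measured. Igfbp4 was abundant in both lines, Igfbp7 was read almost wholly in 4T1, Igfbp6 almost wholly in 4TO7, and Igfbp2, Igfbp3 and Igfbp5 had 0 reads in all 6 libraries. Among receptors and adaptors, Igf1r was 2.41-fold higher in 4TO7 and Irs1 2.48-fold higher in 4T1, and the 95% intervals of the differences in Insr and Irs2 included 0. In all, 7 of the 10 genes passed the low-value filter (a normalised count of at least 10 in at least 3 libraries). At the level of single genes, limma called 2 of these 7 above in 4T1 and 2 above in 4TO7 at an adjusted p under 0.05, where 25.1% and 23.9% of the 14276 genes tested were called in those directions and 49% in either. Ranges of the lines did not touch in 4 of the 7, with 4T1 above in 2 and 4TO7 above in 2, where 29.8% and 28.7% of all genes tested had such ranges, 58.4% in either direction. These shares are close to the background, and Igfbp6 and Igfbp7 passed the filter through the line in which they are high, so the counts say nothing about the axis as a group. The median log2 difference (4T1 minus 4TO7) was 0.06 over the 7 genes and 0.03 over all genes tested. In bulk RNA, fewer cells with a transcript and less of it per cell cannot be told apart.

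**Figure D1:**
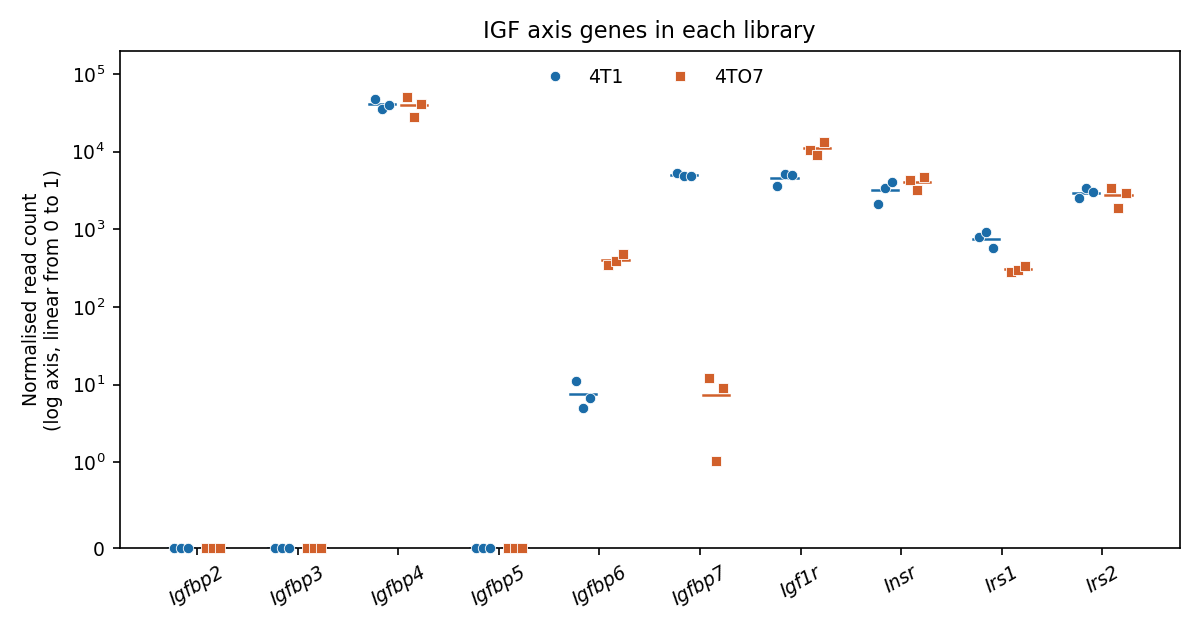
Normalised read count (log axis, linear from 0 to 1) of the 10 genes in each of the 3 4T1 libraries (circles) and 3 4TO7 libraries (squares), with the line mean as a bar. Igfbp7 and Igfbp6 separate the lines in opposite directions, Igfbp4 overlaps at 28155 to 51140, and Igfbp2, Igfbp3 and Igfbp5 sit at 0.

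The promoter windows of 4 binding protein genes are shown because each has another pattern of reads: Igfbp7 in 4T1, Igfbp6 in 4TO7, Igfbp4 in both lines and Igfbp3 in neither. They are RefSeq sequences of GRCm38.p6, from 250 bases before to 50 after a transcript start, written 5′ to 3′ on the gene's strand, with each CpG (the dinucleotide at which mammalian DNA is methylated) in capitals. The windows lie at chr5:77407996-77408295 (minus), chr15:102143936-102144235 (plus), chr11:99040994-99041293 (plus) and chr11:7213874-7214173 (minus).
Igfbp7: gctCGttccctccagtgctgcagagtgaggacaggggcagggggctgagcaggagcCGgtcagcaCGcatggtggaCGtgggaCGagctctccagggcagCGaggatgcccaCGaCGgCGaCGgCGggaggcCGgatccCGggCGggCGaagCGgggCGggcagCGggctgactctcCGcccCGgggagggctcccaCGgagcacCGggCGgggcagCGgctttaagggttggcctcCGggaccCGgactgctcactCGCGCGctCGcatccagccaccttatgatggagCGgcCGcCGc
Igfbp6: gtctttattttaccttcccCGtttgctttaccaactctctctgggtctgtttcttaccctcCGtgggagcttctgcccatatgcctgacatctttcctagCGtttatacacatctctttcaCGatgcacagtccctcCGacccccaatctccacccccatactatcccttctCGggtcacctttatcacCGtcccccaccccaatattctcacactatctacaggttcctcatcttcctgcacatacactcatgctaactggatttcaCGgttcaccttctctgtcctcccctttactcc
Igfbp4: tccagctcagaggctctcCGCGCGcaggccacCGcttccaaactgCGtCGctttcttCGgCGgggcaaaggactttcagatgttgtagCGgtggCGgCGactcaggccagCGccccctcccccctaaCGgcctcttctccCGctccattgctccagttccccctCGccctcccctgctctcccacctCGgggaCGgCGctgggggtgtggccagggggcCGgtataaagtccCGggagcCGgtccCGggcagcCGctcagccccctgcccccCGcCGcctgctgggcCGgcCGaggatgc
Igfbp3: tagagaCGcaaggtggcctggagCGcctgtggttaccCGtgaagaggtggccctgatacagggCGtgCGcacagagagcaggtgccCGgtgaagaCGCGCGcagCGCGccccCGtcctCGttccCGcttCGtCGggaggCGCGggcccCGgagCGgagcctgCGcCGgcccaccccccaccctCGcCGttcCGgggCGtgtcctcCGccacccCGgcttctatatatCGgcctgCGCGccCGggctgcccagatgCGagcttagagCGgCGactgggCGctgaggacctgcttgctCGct
Igfbp7 has 33 CpGs in its window, Igfbp4 27 and Igfbp3 37, against a median of 7 over 32851 windows. Igfbp6 has 8, and its window ends before the GENCODE start of the gene. Of the other genes with 0 reads, Igfbp5 has 10 CpGs and Igfbp2 18 and 14 in its 2 windows, while Igf1r has 48, Irs2 41 and Irs1 28. The windows of Igf1r and Irs2 likewise lie wholly before the GENCODE start. DNA methylation was not measured.

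Igfbp7 encodes a secreted member of the family that binds IGFs weakly and is also found in vessel basement membranes (ENSMUSG00000036256, chromosome 5, 77349240 to 77408041, minus strand, GRCm38). In the order of replicates 1 to 3, used for all values below, it had 5325, 4821 and 4904 normalised counts in the 4T1 libraries and 12.2, 1.05 and 8.96 in the 4TO7 libraries. The 4T1 libraries lay close together and all far above the 4TO7 libraries, among which replicate 2 was the lowest with 1 read. Means were 5017 ± 270.1 in 4T1 and 7.39 ± 5.72 in 4TO7 (SD, n = 3 each), a ratio of 679. On the scale log2(value + 1) limma gave 9.60 ± 0.61 (SE, adjusted p = 6.42e-06), rank 50 of 14276 toward 4T1, and 8.77 without 4TO7 replicate 2. Adding 1 shrinks changes at few reads, yet edgeR and DESeq2 gave lower values here, 9.32 and 9.36. The 3′ end of Igfbp7 shares 85 exon bases with Polr2b on the opposite strand, which had 8132 ± 969 normalised counts in 4TO7 (7634, 9249 and 7514). The strand setting of the counting is not known here, so the 23 Igfbp7 reads in 4TO7 cannot be told apart from Polr2b reads in that stretch.

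Igfbp6, which binds IGF-II in preference to IGF-I, showed the opposite pattern (ENSMUSG00000023046, chromosome 15, 102144362 to 102149511, plus strand). It had 11.1, 4.98 and 6.76 normalised counts in the 4T1 libraries and 343, 386 and 476 in the 4TO7 libraries. The lines did not overlap, and 4TO7 replicate 2 lay between the other 4TO7 libraries. Means were 7.61 ± 3.15 and 402 ± 67.6, 52.8-fold higher in 4TO7, with a log2 difference of -5.60 ± 0.32 (SE) and adjusted p = 3.38e-06 from limma. It ranked 142 of 14276 toward 4TO7.

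Igfbp4, an inhibitory binding protein and the classic substrate of the protease PAPP-A, was the most abundant of the 10 genes (ENSMUSG00000017493, chromosome 11, 99041244 to 99054392, plus strand). It had 47219, 35726 and 40078 normalised counts in the 4T1 libraries and 51140, 28155 and 41262 in the 4TO7 libraries. The lowest and the highest values were both from 4TO7, so the 4T1 values fell inside the 4TO7 range. The log2 difference was 0.06 with a 95% interval of -0.44 to 0.57 (adjusted p = 0.832 from limma), an interval that spans 0.736-fold to 1.48-fold. The sign turned under other scalings (-0.07 with equal totals per library). The spread of Igfbp4 on the log2 scale was 0.44 (SD) in 4TO7 against a median of 0.23 over all genes tested, and 4TO7 replicate 2 lay below the mean of the other 4TO7 libraries by a log2 difference of -0.71.

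Igfbp2, Igfbp3 and Igfbp5 are the remaining members of the family listed here, Igfbp3 being the main carrier of IGFs in blood and Igfbp2 and Igfbp5 neighbours in the genome. None had a read among 114704105 in 4T1 and 104742527 in 4TO7. With a floor of 3 reads over a line, which covers counting error only, the level per length in either line was at most 0.0155 RPKM (reads scaled to the kilobases of exon and to the assigned reads of the library) for Igfbp2, 0.00915 for Igfbp3 and 0.00477 for Igfbp5. For comparison, 26.8% of the protein-coding genes in the table had 0 reads in all 6 libraries.

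In RPKM, the level of Igfbp4 was 246 ± 39.4 in 4T1 and 264 ± 80.6 in 4TO7, rank 128 and rank 109 among the 14226 tested genes with an annotated length. The level of Igfbp7 in 4T1 was 109.7 ± 7.89, rank 353. The level of Igfbp6 in 4TO7 was 10.4 ± 1.67, rank 5049. Of the summed level per length of the 6 binding protein genes, Igfbp4 made up 68.9% ± 1.91 in 4T1 and 95.9% ± 1.28 in 4TO7. Igfbp7 made up 31.0% ± 1.93 in 4T1 and 0.0577% ± 0.0391 in 4TO7, and Igfbp6 0.0498% ± 0.0148 and 4.04% ± 1.31. The shares of the lines did not overlap for any of these 3 genes, while the summed level did (313 to 406 in 4T1 and 191 to 351 in 4TO7). The shares are parts of the same sum, so that of Igfbp4 is not a difference separate from those of Igfbp7 and Igfbp6. The level of Igfbp4 itself overlapped (209 to 288 RPKM in 4T1 and 181 to 342 in 4TO7).

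**Figure D2:**
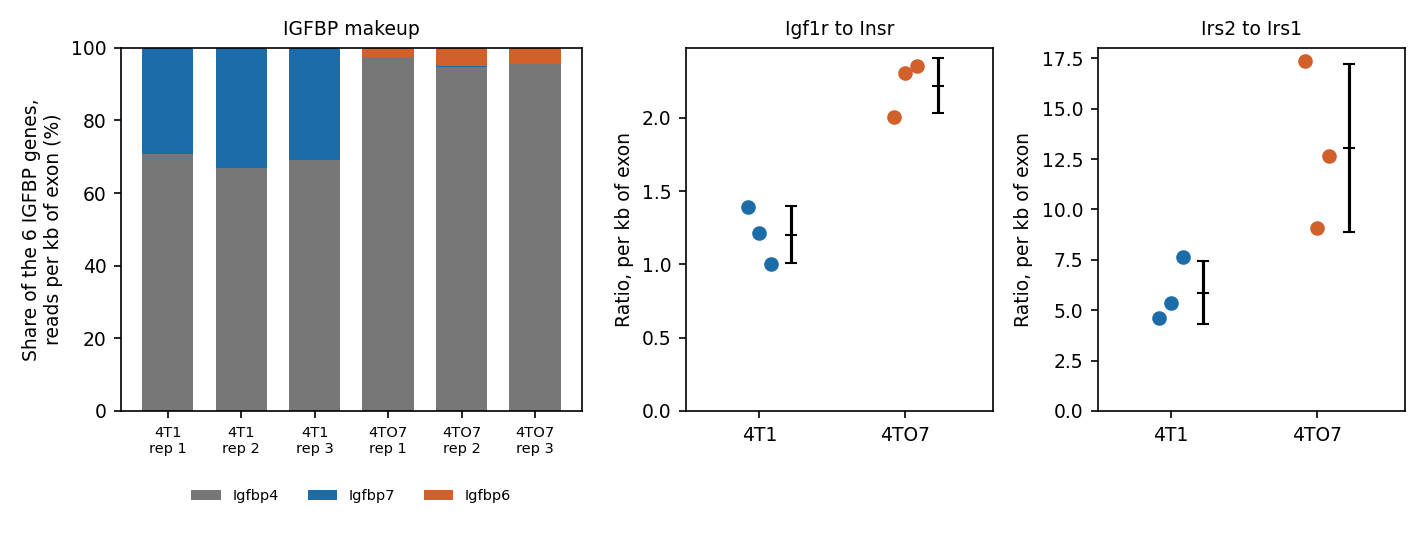
Left, share (%) of Igfbp4, Igfbp7 and Igfbp6 in the summed level per kilobase of exon of the 6 binding protein genes, 1 bar per library; middle and right, the ratios of Igf1r to Insr and of Irs2 to Irs1 per kilobase of exon, 1 point per library with mean ± SD. Igfbp7 fills 29.2% to 33.0% of the 4T1 bars, and both ratios are higher in every 4TO7 library than in any 4T1 library.

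Igf1r, the receptor of IGF-I, was higher in 4TO7 (ENSMUSG00000005533, chromosome 7, 67952827 to 68233668, plus strand). It had 3580, 5122 and 4989 normalised counts in the 4T1 libraries and 10548, 9028 and 13482 in the 4TO7 libraries. The highest 4T1 value lay below the lowest 4TO7 value. Means were 4564 ± 855 and 11019 ± 2264, with a log2 difference of -1.27 ± 0.20 (SE) and adjusted p = 0.00115 from limma.

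Insr, the insulin receptor, which also pairs with the IGF-I receptor in hybrid receptors, overlapped between the lines (ENSMUSG00000005534, chromosome 8, 3122061 to 3279617, minus strand). It had 2102, 3445 and 4081 normalised counts in the 4T1 libraries and 4308, 3206 and 4694 in the 4TO7 libraries. 4T1 replicate 1 was the lowest of all, and 4TO7 replicate 2 lay inside the 4T1 range. The log2 difference was -0.38 with a 95% interval of -0.97 to 0.21 (adjusted p = 0.254 from limma).

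Per kilobase of exon, the ratio of Igf1r to Insr was 1.39, 1.22 and 1.00 in the 4T1 libraries and 2.00, 2.31 and 2.35 in the 4TO7 libraries. Every 4TO7 library thus had more receptor transcripts of the Igf1r kind per Insr transcript than any 4T1 library. Igf2r, which clears IGF-II from the cell surface without IRS signalling, had 10629, 14951 and 17137 normalised counts in 4T1 and 31311, 28058 and 39554 in 4TO7. It was 2.32-fold higher in 4TO7 (log2 difference -1.22, adjusted p = 0.00169 from limma). Its antisense transcript Airn, which shares 0 exon bases with it, had 51.1 ± 7.16 and 340.7 ± 67.4. The ratio of Igf2r to Igf1r per kilobase of exon was 5.27 to 6.20 in 4T1 and 5.29 to 5.61 in 4TO7 and overlapped.

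Irs1, the first of the insulin receptor substrates, was higher in 4T1 (ENSMUSG00000055980, chromosome 1, 82233101 to 82291416, minus strand). It had 790.0, 914 and 573 normalised counts in the 4T1 libraries and 279.7, 301 and 339 in the 4TO7 libraries. The lines did not overlap, and the 4T1 libraries were the more spread. Means were 759 ± 172 and 307 ± 30.3, with a log2 difference of 1.28 ± 0.21 (SE) and adjusted p = 0.00157 from limma. Gm9747, annotated on the opposite strand within 2822 exon bases of Irs1, had at most 5.04 normalised counts, and reads of that stretch cannot be assigned to a strand here.

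Irs2, its paralogue with the same receptors upstream, overlapped between the lines (ENSMUSG00000038894, chromosome 8, 10984681 to 11008458, minus strand). It had 2519, 3385 and 3028 normalised counts in the 4T1 libraries and 3361, 1889.6 and 2971 in the 4TO7 libraries. The lowest value was that of 4TO7 replicate 2. The log2 difference was 0.15 with a 95% interval of -0.37 to 0.67 (adjusted p = 0.61 from limma), and it turned to -0.10 without 4TO7 replicate 2. Per kilobase of exon, the ratio of Irs2 to Irs1 was 4.61 to 7.64 in 4T1 and 9.09 to 17.4 in 4TO7, without overlap.

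**Figure D3:**
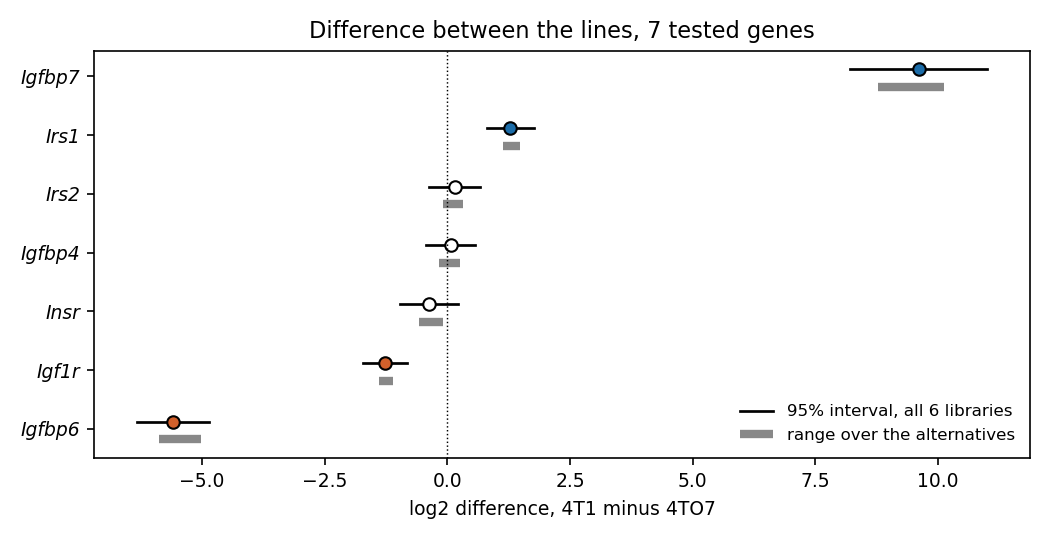
Fitted log2 difference, 4T1 minus 4TO7, of the 7 tested genes with its 95% interval (black) and the range of the same value over 17 alternative analyses (grey). Filled points passed the threshold: Igfbp7 at 9.60 and Irs1 at 1.28 toward 4T1, Igf1r at -1.27 and Igfbp6 at -5.60 toward 4TO7.

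The promoter windows of Irs1 and Irs2 both hold 1 CACGTG, an E-box that reads the same on both strands, as does 1 of the 2 windows of Igfbp2, a gene with 0 reads. It is a motif that 7.15% of the 32851 windows of this length hold. Stretches of the windows around it are shown, with the motif in capitals, at chr1:82291525-82291566 (minus) and chr8:11008944-11008985 (minus).
Irs1: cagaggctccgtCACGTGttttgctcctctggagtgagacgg
Irs2: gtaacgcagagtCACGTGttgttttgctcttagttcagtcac
Between the motif and the RefSeq start lie 109 bases in Irs1 and 38 in Irs2. The GENCODE start of Irs2, at base 11008458, lies outside its window, further downstream of the motif. The longest run that the windows share is 10 bases, gtcacgtgtt, which holds the motif and is found in 16 of the 32851 windows. Of the genes that share this stretch, Irs1 was called and Irs2 was not, the difference between their changes was not tested, and no binding of a factor was measured.

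The order of the 7 genes by level per length was Igfbp4, Igfbp7, Irs2, Igf1r, Insr, Irs1 and Igfbp6 in 4T1. In that line the ranges of the neighbours Igf1r (5.74 to 7.89) and Insr (4.11 to 7.87) overlapped. Within each 4T1 library Igf1r was above Insr, though at 7.88 against 7.87 in replicate 3. In 4TO7 the order was Igfbp4, Igf1r, Irs2, Igfbp6, Insr, Irs1 and Igfbp7. There the ranges of Igf1r (15.3 to 23.1) and Irs2 (8.49 to 15.7) overlapped, as did those of Irs2 and Igfbp6 (9.12 to 12.3), and Igfbp6 and Insr (6.62 to 9.82). Within each 4TO7 library Igf1r was above Irs2. Irs2 was below Igfbp6 in replicate 2 only (8.49 against 9.85), and Igfbp6 below Insr in replicate 1 only (9.12 against 9.26).

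Beyond the 10 genes, 90 others of the pathway were read in 8 lists, of which 75 were tested. limma called 18 of the 75 higher in 4T1 and 21 higher in 4TO7, against 25.1% and 23.9% of all genes tested, with a median log2 difference of -0.28 against 0.03 over all genes tested. The 21 fell to 12 without 4TO7 replicate 1 and to 11 without 4TO7 replicate 3, and rose to 26 without 4TO7 replicate 2. Alternatives that kept all libraries gave 19 to 29. Over all genes tested, 3412 of 14276 were called higher in 4TO7. Without 4TO7 replicates 1, 2 and 3 in turn, these were 2007 of 13682, 3399 of 13701 and 2031 of 13689.

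Ligand genes had few reads. Igf1 had 2 reads in 4T1 and 0 in 4TO7. Igf2 had 2 reads, both in 4T1 replicate 1, against 44 in 4TO7, a ratio of 24.1 (exact 95% counting interval 6.28 to 205). At 17.8, 11.5 and 13.9 normalised counts it was present at a low level in each 4TO7 library (adjusted p = 0.000849 from limma). Igfbp1, Ins1 and Ins2 had 0 reads. Of the 8 ligand, carrier and receptor genes only Igf2 and Igf2r passed the filter, both called higher in 4TO7 (23.9% over all genes tested). Igf2 passed through its 4TO7 libraries alone and so had to differ, and it was no longer tested without any 1 of them or with a minimum of 50. Of the 3 genes for proteins that bind Igf2 mRNA, Igf2bp1 had 1337 ± 217 normalised counts in 4T1 and 18.3 ± 13.2 in 4TO7 (log2 difference 6.48, adjusted p = 6.68e-05 from limma, and 5.65 without 4TO7 replicate 1).

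In the list of proteases that cut binding proteins and their inhibitors, limma called 3 of the 6 tested genes toward 4T1 and 1 toward 4TO7. Over all genes tested these shares were 25.1% and 23.9%. The 3 were the inhibitors Stc1 and Stc2 and the protease Adam12, and the 1 was the protease Pappa2. Pappa, which encodes PAPP-A, had 0 reads in 4T1 and 2 in 4TO7. Its relative Pappa2, which cuts Igfbp3 and Igfbp5, had 47.4, 52.8 and 33.8 normalised counts in 4T1 and 202, 91.2 and 126 in 4TO7 (3.13-fold higher in 4TO7, adjusted p = 0.00583 from limma). The stanniocalcins Stc2 and Stc1, which inhibit these proteases, were 7.51-fold and 2.12-fold higher in 4T1, with Stc2 at 362 ± 52.5 against 48.2 ± 18.4 (adjusted p = 9.63e-05) and Stc1 at 1171 ± 246 against 553 ± 150.3 (adjusted p = 0.00646). Adam12, a metalloprotease that cuts Igfbp3 and Igfbp5, had 4190 reads in 4T1 and 1 in 4TO7, a ratio of 3826 (exact 95% counting interval 686 to 151159, adjusted p = 2.66e-07 from limma), and it passed the filter through its 4T1 libraries alone. Htra1 and Adam9 were abundant in both lines, were tested and were not called (adjusted p = 0.451 and 0.325 from limma).

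Of 10 tested genes whose proteins carry the amino-terminal domain of the binding proteins, 2 were called toward 4T1 and 3 toward 4TO7. The shares over all genes tested were 25.1% and 23.9%. Cyr61, a matrix protein, was 9.20-fold higher in 4T1 at 11058 ± 1110 normalised counts. Toward 4TO7, the related Nov was 10.6-fold up at 811 ± 326, the serine protease Htra3 50.4-fold higher at 412 ± 213, and the proteoglycan Esm1, which passed the filter through its 4TO7 libraries alone, 873-fold higher at 4055 ± 689. In limma the adjusted p of these genes ran from 1.44e-07 to 0.000365.

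Of 13 tested adaptors and receptor regulators, 4 were called toward 4T1 and 5 toward 4TO7 (25.1% and 23.9% over all genes tested). Shc1, the adaptor that links the receptors to RAS, had 4122 ± 176 normalised counts in 4T1 and 11344 ± 2752 in 4TO7 (adjusted p = 0.000415 from limma). Ptprf, a receptor phosphatase, was 15.2-fold higher in 4T1 at 7316 ± 794 (adjusted p = 3.3e-06 from limma). Gab1, a docking adaptor, was 2.20-fold higher in 4T1 (adjusted p = 0.0297 from limma), a call lost without 4T1 replicate 2, 4T1 replicate 3 or 4TO7 replicate 1 (adjusted p 0.0518 to 0.0997). Socs1, a suppressor of receptor signalling, was 1.88-fold higher in 4TO7 (adjusted p = 0.0299 from limma), a call lost with quantile normalisation (adjusted p = 0.0714) or without 4T1 replicate 1, 4T1 replicate 3, 4TO7 replicate 2 or 4TO7 replicate 3 (0.0508 to 0.102). Grb10, a well-known inhibitor of both receptors and chosen here after its value was seen, had 0 reads in all 6 libraries.

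Among 20 PI3 kinase and AKT genes, 4 were called toward 4T1, 5 toward 4TO7 and 11 in neither direction. Calls over all genes tested were 25.1% toward 4T1 and 23.9% toward 4TO7. Enzymes that remove signal lipids or phosphates went both ways: Inpp4b was 4.39-fold and Phlpp1 2.27-fold higher in 4T1, and Inppl1, which encodes the lipid phosphatase SHIP2, 1.83-fold higher in 4TO7. Foxo4, a transcription factor that AKT inhibits, was 3.04-fold higher in 4TO7. In limma the adjusted p of these genes ran from 0.000338 to 0.00209.

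Among 12 mTOR genes, 2 were called toward 4T1 and 3 toward 4TO7 (25.1% and 23.9% over all genes tested). Ddit4, an inhibitor of mTOR, was 2.88-fold higher in 4T1 (adjusted p = 0.0149 from limma) and the kinase Rps6kb1 1.53-fold higher (adjusted p = 0.0104), while Tsc1, a brake on mTOR, was 1.52-fold higher in 4TO7 (adjusted p = 0.0106). Akt1s1, also an inhibitor of mTOR, was 1.46-fold higher in 4TO7 (adjusted p = 0.0278 from limma), a call lost without trend and robust fitting (adjusted p = 0.0507) or without 4T1 replicate 2, 4T1 replicate 3, 4TO7 replicate 1 or 4TO7 replicate 3 (0.0581 to 0.103).

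Of 11 tested genes known as FOXO targets, 2 were called toward each line (25.1% toward 4T1 and 23.9% toward 4TO7 over all genes tested) and 7 were not called. Their median log2 difference was -0.73, against 0.03 over all genes tested. The summed level of the list was 22701 normalised counts in 4TO7 replicate 2, against 44241 and 44392 in replicates 1 and 3. In 4T1 it was 19845 to 29656. The mitochondrial superoxide dismutase gene Sod2 and the transcriptional co-regulator gene Cited2 were 2.14-fold and 2.07-fold higher in 4T1 (adjusted p = 0.00224 and 0.000421 from limma). The cell cycle inhibitor Cdkn1b had 3777 ± 587 normalised counts in 4T1 and 7271 ± 701 in 4TO7 (adjusted p = 0.00153 from limma). Ccng2, a cyclin gene of growth-arrested cells, was 1.96-fold higher in 4TO7 (adjusted p = 0.0173 from limma), a call lost without 4T1 replicate 1, 4T1 replicate 2 or 4TO7 replicate 3 (adjusted p 0.0508 to 0.0664).

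**Figure D4:**
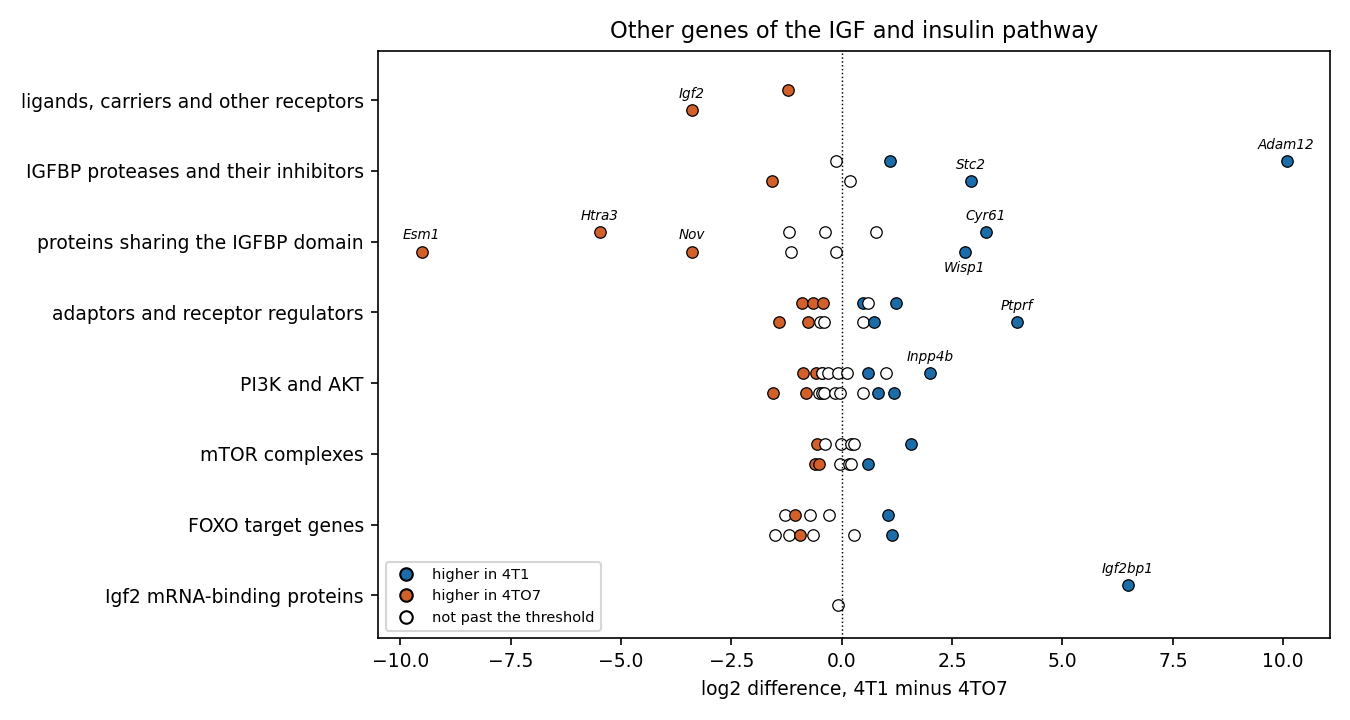
Fitted log2 difference, 4T1 minus 4TO7, of the tested genes in the 8 pathway lists, 1 point per gene, blue where higher in 4T1, orange where higher in 4TO7 and open where not past the threshold. Names mark called genes beyond 2 on this scale, from Esm1 at -9.52 to Adam12 at 10.1, and Htra1 is plotted in 2 lists.

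By position, Igfbp2 and Igfbp5 lie tail to tail on chromosome 1 with a gap of 5457 bases, as do Igfbp1 and Igfbp3 on chromosome 11 with a gap of 3539 bases, and all 4 genes had 0 reads. Genes of tensins, a family of focal adhesion proteins, are found 11.3 to 1218 kb from 4 of the binding protein genes, a pattern chosen after the values were seen. Spryd3 lies between Igfbp6 and Tns2, and Tnp1 between Igfbp5 and Tns1. Tns4 lies 11.3 kb from Igfbp4 and had 22465 ± 1569 normalised counts in 4T1 and 21248 ± 1502 in 4TO7 (adjusted p = 0.617 from limma). Tns2 lies 28.0 kb from Igfbp6 and had 2372 ± 392 against 6189 ± 2113, higher in 4TO7 (adjusted p = 0.00442). Tns3 lies 1218 kb from Igfbp3 and had 18045 ± 1702 against 9323 ± 624 (adjusted p = 0.00049), beside 0 reads of Igfbp3. Tns1 lies 1035 kb from Igfbp5 and had 125 ± 11.3 against 19.0 ± 17.5 (adjusted p = 0.00622), beside 0 reads of Igfbp5. The log2 difference of Tns1 was 3.17, and it was 2.29 without 4TO7 replicate 2 and 3.91 without 4TO7 replicate 3.

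The authors' deposited table gives its own fold changes, as 4TO7 over 4T1. In the authors' deposited table, the log2 fold change was -9.37 for Igfbp7, 5.72 for Igfbp6, 1.27 for Igf1r and -1.31 for Irs1, with adjusted p from 2.11e-145 to 2.19e-07. For Insr, Irs2 and Igfbp4 the authors' deposited table lists adjusted p = 0.353, 0.767 and 0.944. Of the genes to which the authors gave an adjusted p, 39.1% were under 0.05.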

How the data were processed

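RNA sequencing of 3 libraries each of 4T1 and 4TO7 gave 1 table. The submitters' processing notes name STAR 2.5, featureCounts 1.5, DESeq2 and the build GRCm38; strand settings are not given in any source. Values are the authors' normalised signal, reads per gene scaled by library (factors 0.954 to 1.07), per the file headers. The authors' log2 fold change, its error, a test score, and p-values before and after adjustment are deposited beside it.

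Dividing by each library's step gave whole reads for 100% of values (within 1e-06). The deposited values were tested as log2(value + 1) with limma 3.58.1 in R 4.3.3 (group only, trend, robust, two-sided), on the 14276 genes with at least 10 in at least 3 libraries, with Benjamini-Hochberg adjustment over all of them and a threshold of 0.05. Read totals were 33605566 to 39072639 per library, and intervals and the floor of 3 reads cover counting error only. The code was checked on simulated counts. Exon lengths and positions are from GENCODE M21 (GRCm38), promoter windows from RefSeq (GRCm38.p6), which gave 9 of the 10 genes; Insr had no entry. All 10 genes were matched by symbol, and of the 90 pathway genes all were matched.

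The genes and lists were chosen with earlier results of these data known. Named are the 10 genes, up to 4 called genes per list with the largest difference, Igf1, Igf2, Igf2r, Igfbp1, Pappa, Krt8, Krt18, Ptprc and Pecam1, and any other gene named was chosen after its values were seen. Alternatives changed the pseudocount (0.5 or 5), filter (none or 50), scaling, variance model and libraries, used a replicate block, or replaced limma by edgeR 4.0.16 and DESeq2 1.42.0 on the recovered reads.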

Additional observations from a re-analysis of the deposited data

How the results depend on the processing

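Igfbp7, Igfbp6, Igf1r and Irs1 kept their direction and call in all 17 alternatives, and 2 of the 10 genes were called in each direction throughout. Insr kept its sign and was not called. Igfbp4, not called, turned to -0.066 (log2) with equal totals, -0.17 with quantile normalisation and -0.0039 with edgeR, and ranged from -0.17 to 0.26 when 1 library was left out. Irs2, not called, ranged from -0.10 to 0.32 when 1 library was left out. Equal totals moved the median of all genes by -0.13. Of 40 other named genes tested, 35 kept their direction and side of the threshold in every alternative that tested them, which for Igf2 was 13 and for Adam12, Esm1 and Krt14 14 of the 17, since these were not tested when a library of their high line was left out (Igf2 also not at a minimum of 50); Gab1, Socs1, Akt1s1 and Ccng2 lost a call under at least 1 alternative, and Tns4, not called, turned to -0.048 with equal totals and -0.14 with quantile normalisation. The cause of these changes was not tested.

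Leaving out 1 library gave 4723 to 7545 called genes in place of 6997, 2290 (without 4T1 replicate 2) to 4146 higher in 4T1 and 2007 (without 4TO7 replicate 1) to 3399 higher in 4TO7. For the pathway genes higher in 4TO7 it gave 11 to 26 in place of 21. An arm of 2 libraries shares its spread with the other line in these fits. By normalised counts Igfbp4 made up 89.0% of the binding proteins in 4T1 and 98.9% in 4TO7, against 68.9% and 95.9% per length, a scale added after the data were seen.

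The replicate numbers are shared between the lines, but deviations of same-numbered libraries correlated at -0.01, 0.27 and 0.33, not all above 0.1, so the numbers were not taken as pairs. With the replicate block 7750 genes were called, and not every library correlated best with its own number. edgeR and DESeq2 on the recovered reads called 6967 and 7306 genes over the whole table. Groups of 3 are too small for a test of single outlying libraries.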
